A study of Mus musculus with 6 samples.

Results

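The comparison set 2 IFN-beta libraries titled replicate 2 against 2 titled replicate 1, 4 libraries of 6 in the series, within each siRNA. All were RNA of NIH3T3 cells, an established mouse fibroblast line grown in donor bovine serum. Every library received an siRNA 48 h earlier, either the negative control (NC) siRNA or an siRNA against SPT6 (gene symbol Supt6), a histone chaperone that travels with elongating RNA polymerase. For the 4 libraries compared, mouse recombinant interferon beta (IFN-beta) was added for 4 h at a dose of 100 units/ml. The remaining 2 libraries, 1 for each siRNA, came from untreated cells and both carry number 1. The labels give the number alone and say nothing of cell density, passage, harvest or library preparation. Whether a number marks a separate culture, a day or a preparation cannot be told apart, so each p-value rests on the spread among these 4 libraries alone.

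Type I interferon binds its receptor on fibroblasts and, through the JAK kinases, switches on antiviral genes that carry a promoter sequence called the interferon-stimulated response element. The size of that response varies with the levels of the receptor and of feedback inhibitors. Apart from interferon, fibroblasts in culture move between a proliferating state, driven by serum growth factors through the ERK kinases, and a resting state marked by growth arrest genes.

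Counts assigned to genes ranged from 7935961 to 17596498 a library, and 32.9% to 38.0% of the reads accounted for in the count files fell in genes. Supt6 lay between 175 and 188 CPM (counts scaled to library size and composition) in the 3 control siRNA libraries and between 88.7 and 108 CPM in the 3 SPT6 siRNA libraries. Below, paired values give control siRNA first and SPT6 siRNA second. Fibroblast markers were abundant, whereas epithelial, endothelial, adipocyte and skeletal muscle markers summed to at most 4.98 CPM each in any library, and macrophage markers to at most 13.5 CPM. Epcam, Tyrobp and Myod1 were at 0 counts in all 6 libraries. The number 2 library with SPT6 siRNA held the highest share of counts in the ribosomal RNA precursor gene Rn45s, 2.4% against 0.841% to 1.34% in the other 5.

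Number 2 had lower levels of many interferon-stimulated, growth arrest and cholesterol synthesis genes than number 1, and higher levels of many immediate early and DNA replication genes. Of 12558 genes tested, 957 (7.62%) were called higher in number 2 and 969 (7.72%) lower (edgeR quasi-likelihood test with siRNA as a term, adjusted p under 0.05). These shares over all genes are the background for every count of list members below. The balance moved with the scaling, to 774 higher and 1153 lower with upper quartile scaling and 1276 and 991 by library size alone. The test counts disagreement between the siRNA pairs as error, so that the called genes share a sign in both pairs (1925 of 1926) follows from the selection. Larger differences were more often downward: 341 called genes were more than 2-fold lower and 147 more than 2-fold higher, and past 4-fold the counts were 80 and 12. Both number 2 libraries lay above both number 1 libraries for 2714 genes (21.6%) and below them for 2702 (21.5%). DESeq2 with the same design called 806 genes, and a fit that ignored the siRNA called 7.

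**Figure D1:**
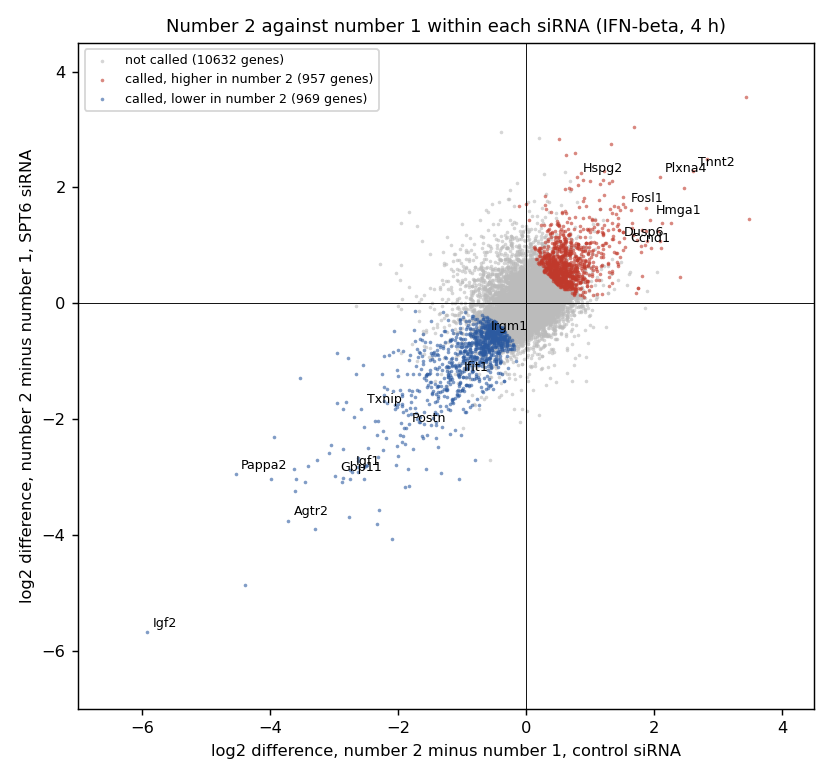
Each point is 1 of the 12558 genes tested, with the log2 difference between number 2 and number 1 (log2 CPM, prior count 2) under control siRNA on the x axis and under SPT6 siRNA on the y axis, 1 library against 1 each. Red and blue points are the 957 genes called higher and the 969 called lower, nearly all of which sit in the upper right and lower left, with Igf2 farthest down.

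Over all genes, the difference within control siRNA and that within SPT6 siRNA had a Pearson r of 0.624 and a Spearman rho of 0.529, and 68.6% of genes had the same sign. These are descriptions across genes of 4 libraries that differ in depth, and genes are not independent replicates. Of the variation in log2 CPM among the 4 libraries, 44.7% went with the number, 44.9% with the siRNA and 10.4% with neither. With the number in the model, 2128 genes (16.9%) differed between SPT6 and control siRNA, 53.7% of them higher with SPT6 siRNA, or 68% when libraries were scaled by size alone. Without the number in the model edgeR called 0 (1493 at an unadjusted p under 0.05), and DESeq2 with it called 624.

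Genes of the insulin-like growth factor system were among those most reduced in number 2. Igf2, an imprinted growth factor gene active in embryonic fibroblasts (chromosome 7, 142650766 to 142666816, GRCm38), stood at 80.7 and 70.5 CPM in number 1 and at 1.18 and 1.22 CPM in number 2. Its untreated levels were 82.4 and 85.2 CPM. In counts, number 2 held 20 and 14 reads against 1075 and 691 in number 1. Igf2 was thus 63.2-fold lower in number 2 (log2 difference -5.98 ± 0.21 SE, adjusted p = 4.185e-13), while the 4 number 1 libraries lay close together whatever the siRNA or treatment.

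Igf1, the second ligand of the same receptor, stood at 103 and 62.7 CPM in number 1 and at 15.1 and 8.38 CPM in number 2, beside 136 and 72.1 CPM untreated (log2 -2.83 ± 0.15 SE, adjusted p = 6.93e-10). Pappa2, a protease that frees these ligands from their binding proteins, stood at 77.5 and 49.5 CPM in number 1 and at 3.18 and 6.29 CPM in number 2. Igfbp4, a binding protein, was lower by log2 -2.36 ± 0.21. Both number 2 libraries lay below both number 1 libraries for each of these 4 genes. In the opposite direction, Igf2bp1, which encodes a protein that binds the Igf2 transcript, was higher at 128 and 121 CPM against 82.9 and 66.3 CPM. Across 15 tested genes of ligands, receptors, binding proteins and adaptors, 2 (13.3%) were called higher and 5 (33.3%) lower, beside 7.62% and 7.72% of all genes. Their median was 0.06 on the log2 scale. The list, and Igf1, Igfbp4 and Igf2bp1 as its examples, were chosen after their values were seen. Among 11 tested imprinted growth genes, Igf2 and Peg3 (-0.77 ± 0.15) were called lower, none was called higher, and Dlk1 differed by 0.26 ± 0.16 without passing the test.

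Several other genes at the lower extreme encode surface or membrane proteins. Agtr2, the type 2 angiotensin receptor, stood at 24.4 and 12.5 CPM in number 1 and at 1.71 and 0.786 CPM in number 2. Cacna1g, a calcium channel subunit, Msln, the surface protein mesothelin, Boc, a hedgehog co-receptor, and Tmem176b, a membrane protein gene, were lower by log2 -3.16 ± 0.23, -3.27 ± 0.21, -3.16 ± 0.24 and -3.63 ± 0.26. Bmf, a BH3-only promoter of apoptosis, was lower by -2.90 ± 0.35, with an uneven size in the siRNA pairs (-2.10 and -4.06). The rule that named these 6 genes required number 2 to lie below number 1 without overlap.

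At the upper extreme stood Tnnt2, cardiac troponin T, at 2.33 and 2.45 CPM in number 1 and 14.9 and 12.5 CPM in number 2 (log2 2.53 ± 0.24 SE, adjusted p = 6.074e-07). Plxna4, a semaphorin receptor, was at 11.03 and 12.4 CPM in number 1 and at 47.1 and 57.0 CPM in number 2, a 4.42-fold difference. Hmga1, a chromatin protein of proliferating cells, was higher by log2 1.73 ± 0.19, and Lef1, a transcription factor of the Wnt pathway, by 1.56 ± 0.21. Nav2, a cytoskeletal regulator, was higher by 1.66 ± 0.18. Prl2c2, a proliferin gene known for growth-dependent expression in 3T3 cells, stood at 48.3 and 40.3 CPM in number 1 and at 169 and 96.9 CPM in number 2. It has near-identical copies among which reads could be split, so its value is uncertain.

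Transcripts of the interferon response were lower in number 2 in both siRNA pairs. Ifit1, an antiviral RNA-binding protein (chromosome 19, 34640871 to 34650009), stood at 1719 and 1064 CPM in number 1 and at 826 and 445 CPM in number 2, against 2.15 and 3.01 CPM untreated. It was 2.23-fold lower in number 2 (log2 -1.16 ± 0.16 SE, adjusted p = 6.024e-05). Isg15, a ubiquitin-like modifier, was at 202 and 142 CPM in number 1 and 96.6 and 60.2 CPM in number 2, with 4.21 and 3.38 CPM untreated. Ifi27l2a, a small interferon-induced membrane protein, differed by more, at 41.6 and 26.7 CPM in number 1 and 8.65 and 5.67 CPM in number 2. Its number 2 values were below the untreated 18.98 and 15.1 CPM. For all 3 genes both number 2 libraries lay below both number 1 libraries, and the control siRNA library was the higher one within each number.

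Of 98 tested members of the interferon-stimulated list, 75 were called lower and none higher, 97 had a negative difference, and the median was -0.80 on the log2 scale. The median was -0.74 within control siRNA and -0.86 within SPT6 siRNA, against 0.02 over all genes tested. The panel genes Ifit1, Ifit3, Isg15, Mx2, Rsad2, Cxcl10, Irf7, Stat2, Usp18, Oasl2 and Rtp4 were each called lower. Among them Ifit3 differed the most at log2 -1.51 ± 0.14 and Cxcl10, a chemokine, the least at -0.41 ± 0.13. DESeq2 called 61 of the 98 lower and none higher. DESeq2 did not call Cxcl10 (adjusted p = 0.1581), Irf7 (0.06264) or the feedback gene Socs1 described next (0.1539), and the GC and length correction below did not call Cxcl10 (0.07239). For scale, SPT6 against control siRNA in the same 4 libraries gave this list a median of -0.48.

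The interferon-inducible GTPases, many of which attack the vacuoles of intracellular pathogens, had 22 of 24 members called lower. Their median was -1.24, in a list chosen after values were seen. Gbp11 (annotated as a polymorphic pseudogene) stood at 24.1 and 19.1 CPM in number 1 and at 2.88 and 2.27 CPM in number 2 (log2 -3.06 ± 0.21). Gbp6 and Iigp1 were lower by -1.64 ± 0.15 and -1.55 ± 0.15. Irgm1, an immunity-related GTPase named after its values were seen, was lower by -0.60 ± 0.15, at 750 and 534 CPM against 479 and 363 CPM. Members of these families share sequence, so reads may be split between close copies.

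The JAK-STAT list as a whole differed less than the interferon-stimulated list, whose median was -0.80. Stat2 was lower by -0.54 ± 0.14. Usp18, a feedback inhibitor at the receptor, was lower by -0.98 ± 0.14, more than that median. Both are panel genes that stood far above the untreated library. With control siRNA, Stat2 was at 29.9 CPM untreated and 272 CPM in number 1, and Usp18 at 2.48 and 250 CPM. Of the receptor genes, Ifnar2 was lower at 28.3 and 29.2 CPM against 41.0 and 39.3 CPM, a gene with untreated levels of 37.5 and 38.9 CPM. Socs1, an inhibitor of the JAK kinases, was higher, at 31.0 and 33.2 CPM against 22.5 and 20.1 CPM. Of 18 tested JAK-STAT genes, 5 were called lower and 1 higher, with a median of -0.24. Ifnar2 was named after its value was seen.

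Promoter windows from RefSeq (GRCm38.p6, 250 bases before to 50 after the start site) were matched to 10012 of the 12558 genes tested, and a gene counted once if any of its windows held a motif on either strand. The interferon response element core, GAAA followed by any 2 bases and GAAA again, was found in 39 of 79 interferon-stimulated genes with a window (49.4%) and in 3.73% of all tested genes with one. It was in 11.7% of called lower genes and 2.45% of called higher genes. The windows of 3 interferon genes show how the core (capitals, overlapping copies run together) is placed. Each line reads 5′ to 3′ on the gene's strand.
Ifit1, chr19:34640730-34640849, plus strand: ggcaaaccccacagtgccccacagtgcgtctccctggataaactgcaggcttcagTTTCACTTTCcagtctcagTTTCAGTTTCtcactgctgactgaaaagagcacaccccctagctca
Isg15, chr4:156200832-156200951, minus strand: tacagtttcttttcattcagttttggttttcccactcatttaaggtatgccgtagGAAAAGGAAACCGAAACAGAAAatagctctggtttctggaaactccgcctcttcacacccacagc
Irgm1, chr11:48871386-48871505, minus strand: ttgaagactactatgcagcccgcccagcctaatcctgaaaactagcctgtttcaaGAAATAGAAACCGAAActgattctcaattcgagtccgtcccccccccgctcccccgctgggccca
Ifit1 carries 2 separate copies, read on the opposite strand, whereas Isg15 carries 3 overlapping copies and Irgm1 carries 2. A match describes the letters in the window and is not evidence of binding.

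Against the untreated library of the same siRNA, which both numbers share, the interferon-stimulated list had a median log2 difference of 3.61 in number 1 and 2.93 in number 2 with control siRNA. With SPT6 siRNA the medians were 3.32 and 2.30. All 98 members were above the untreated library in both number 1 libraries, and 92 and 93 of 98 in the number 2 libraries. Because no untreated library carries number 2, a different starting level and a different response to IFN-beta cannot be told apart.

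Over the called genes as a whole, the untreated libraries lay near number 1. The 957 genes called higher had medians of -0.03 and -0.03 in number 1 against the untreated libraries, and 0.62 and 0.63 in number 2. The 969 called lower had medians of -0.04 and 0.02 in number 1, and -0.76 and -0.72 in number 2. These sets were chosen on the number 2 against number 1 contrast, so the values describe where the untreated libraries sit and test nothing.

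**Figure D2:**
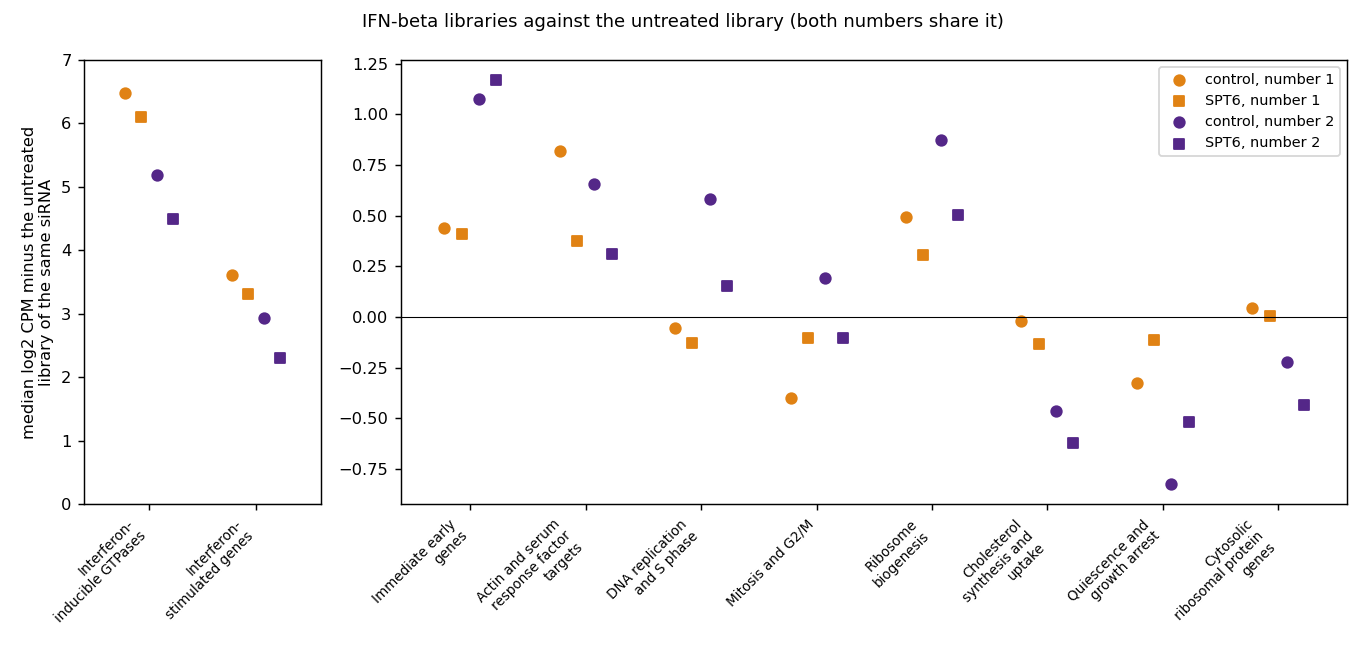
Points give the median over each list's tested genes of log2 CPM in an IFN-beta library minus the untreated library of the same siRNA (orange, number 1; purple, number 2; circles, control siRNA; squares, SPT6 siRNA). Both interferon lists lie lower in number 2, and for cholesterol synthesis and ribosomal protein genes number 1 lies near 0 and number 2 below it.

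Immediate early genes, which respond to growth factors within minutes to hours, were higher in number 2. Of 40 tested, 21 were called higher and 1 lower (background 7.62% and 7.72%), with a median fitted difference of 0.52. In log2 CPM with a prior count of 2, the medians were 0.56 and 0.60 within the siRNA pairs. DESeq2 called 14 of the 40 higher and none lower. Fosl1, an AP-1 subunit, stood at 5.25 and 6.43 CPM in number 1 and 15.7 and 20.7 CPM in number 2, with 3.30 and 4.10 CPM untreated. Dusp6, a phosphatase that restrains ERK, was at 44.5 and 52.8 CPM in number 1 and 121 and 110 CPM in number 2 (log2 1.26 ± 0.14 SE, adjusted p = 4.746e-06). In both genes number 2 was above number 1 without overlap, and number 1 was above the untreated libraries. Klf4 and Egr3, zinc finger transcription factors, were higher by 1.38 ± 0.16 and 1.48 ± 0.19. Among 23 genes that report ERK activity, some of them also immediate early genes, 17 were called higher and none lower, with a median of 0.90. This ERK list was chosen after values were seen. That list gave Epha2, a receptor tyrosine kinase, at 33.0 and 48.3 CPM against 83.7 and 126 CPM, and Etv4, an ETS factor, at 25.1 and 21.8 CPM against 57.5 and 51.1 CPM. Of 6 EGF family ligands tested, Ereg (log2 1.43 ± 0.15), Hbegf (1.19 ± 0.14) and Btc (1.65 ± 0.51) were called higher, also chosen after values were seen. Btc had the widest error of these, and DESeq2 called 2 of the 6 higher.

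Targets of YAP and TEAD, which report on cell spreading and contact, were called higher more often than all genes. Their share called lower was near that of all genes. DESeq2 called 4 higher and 1 lower. Of 22 tested, 6 (27.3%) were called higher and 2 (9.09%) lower, beside 7.62% and 7.72% of all genes, with a median of 0.35. Cyr61, a secreted matrix protein, was at 252 and 190 CPM in number 1 and 367 and 358 CPM in number 2, and Lats2 and Ajuba, a kinase and an adaptor of the Hippo pathway, were higher by 0.71 ± 0.15 and 0.65 ± 0.14. Tgfb2, a transforming growth factor gene, was lower, at 10.3 and 8.82 CPM in number 2 against 21.8 and 25.1 CPM.

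Growth arrest genes were lower in number 2, with 14 of 25 called lower (56%) and 4 higher (16%), beside 7.72% and 7.62% of all genes. The median fitted difference was -0.70. In log2 CPM with a prior count of 2, a different measure, the medians were -0.43 within control siRNA and -0.60 within SPT6 siRNA. Txnip, an inhibitor of thioredoxin and of glucose uptake, stood at 64.2 and 87.8 CPM in number 1 and 10.6 and 24.8 CPM in number 2, beside 92.7 and 96.3 CPM untreated (log2 -2.20 ± 0.17, adjusted p = 4.16e-08). Ccng2, a cyclin of resting cells, and Gas6, a growth arrest gene encoding a receptor ligand, were lower by -1.24 ± 0.15 and -1.11 ± 0.14. Among the 4 members called higher was Ccnd1, cyclin D1, which drives entry into the cell cycle and was at 544 and 420 CPM in number 2 against 187 and 214 CPM. Pdgfra, a growth factor receptor, was lower at 234 and 226 CPM in number 2 against 424 and 499 CPM, with 878 and 736 CPM untreated. All 5 genes had groups that did not overlap. Ccnd1 was named after its value was seen.

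**Figure D3:**
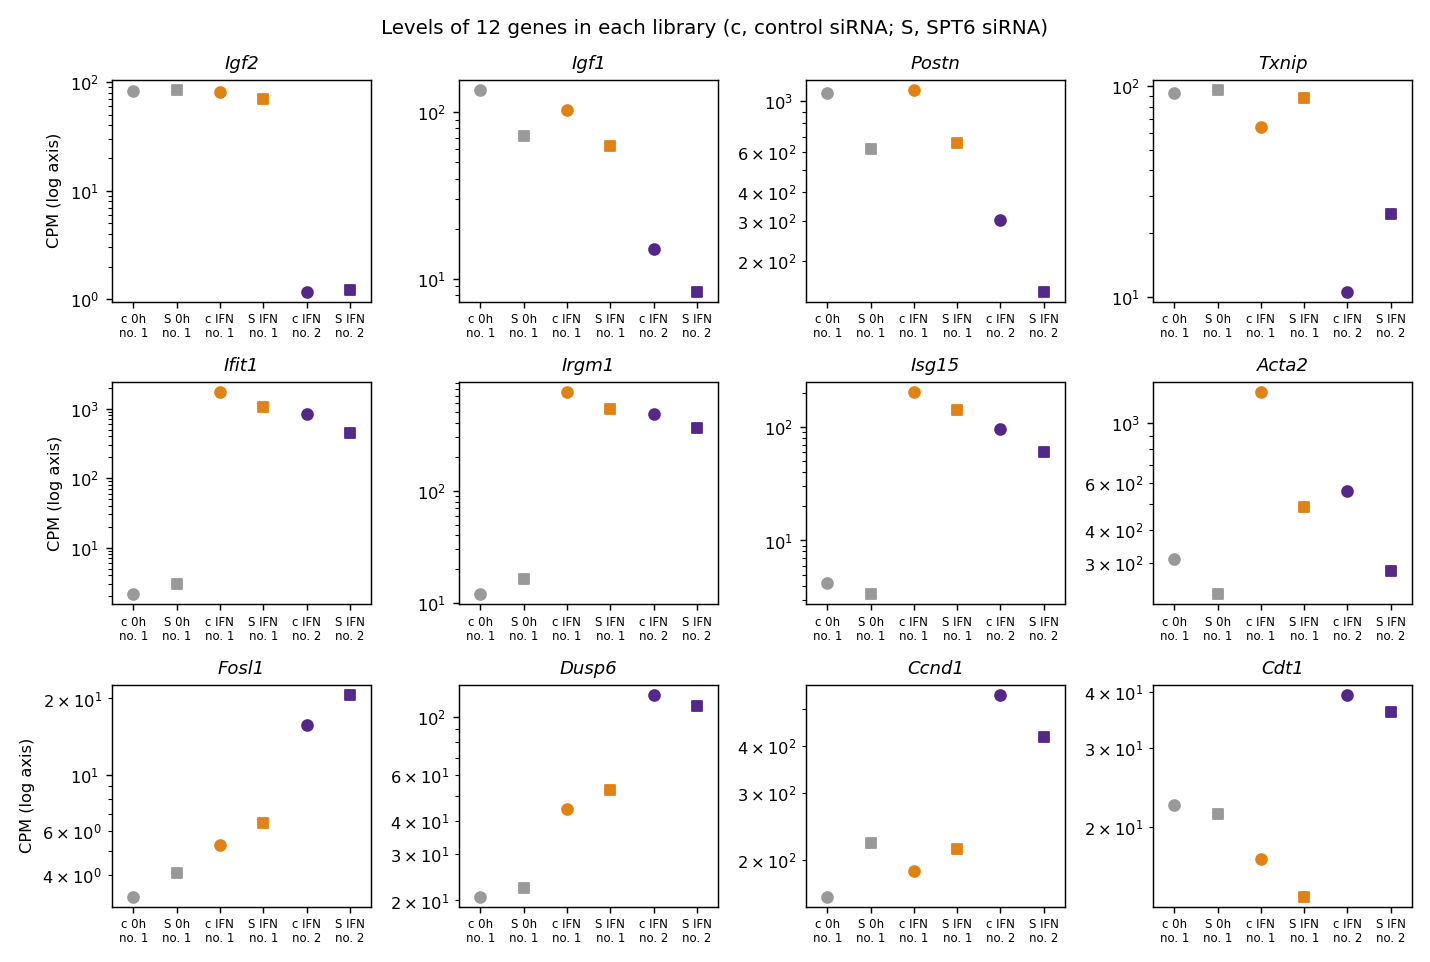
Each panel shows 1 gene's CPM on a log axis in the 6 libraries (grey, untreated; orange, IFN-beta number 1; purple, IFN-beta number 2; circles, control siRNA; squares, SPT6 siRNA). Igf2, Igf1, Postn and Txnip are low in number 2 alone, the interferon genes Ifit1, Irgm1 and Isg15 are high in all 4 IFN-beta libraries and lower in number 2, and Fosl1, Dusp6, Ccnd1 and Cdt1 are highest in number 2.

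DNA replication genes were higher in number 2 in both pairs. All 48 tested members had a positive difference, and 25 (52.1%) were called higher and none lower, beside 7.62% and 7.72% of all genes. The median was 0.50 (0.68 within control siRNA, 0.29 within SPT6 siRNA). Cdt1, a licensing factor of replication origins, stood at 17.0 and 14.0 CPM in number 1 and 39.4 and 36.1 CPM in number 2, with 22.4 and 21.3 CPM untreated. Rrm2, the regulated subunit of ribonucleotide reductase, was at 67.9 and 55.1 CPM in number 1 and 156 and 99.3 CPM in number 2. Both genes had number 2 above number 1 without overlap. Ccne1, cyclin E1, and Mcm10, a replication initiation factor, were higher by 0.86 ± 0.16 and 0.81 ± 0.15. Number 2 lay above number 1 without overlap for 18 of the 48 members, beside 21.6% of all genes, and the list median for SPT6 minus control siRNA was -0.54. DESeq2 called 11 of the 48.

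The promoter windows of replication genes held an E2F core (TTTCGCGC, TTTCCCGC or TTTGGCGC, either strand) in 16 of 38 genes with a window (42.1%), against 4.19% of all tested genes with one. Called higher genes held it in 6.39% and called lower genes in 1.26%. The window of Mcm5, a helicase subunit (101 and 65.5 CPM in number 1, 172 and 101 CPM in number 2), is shown with 2 overlapping matches in capitals.
Mcm5, chr8:75109300-75109419, plus strand: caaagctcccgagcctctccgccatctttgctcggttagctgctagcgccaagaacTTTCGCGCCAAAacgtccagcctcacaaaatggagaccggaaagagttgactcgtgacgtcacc

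Genes of mitosis did not follow in both pairs. Their median was 0.54 within control siRNA and -0.0085 within SPT6 siRNA, with 10 of 51 called higher and none lower. Espl1, separase, was higher in both pairs by 0.98 and 0.98, and Foxm1, a transcription factor of the G2 phase, by 0.69 and 1.01. By contrast Aurka, a mitotic kinase, was higher by 0.87 with control siRNA and by 0.14 with SPT6 siRNA. Replication-dependent histone genes had 2 of 54 called higher, below the 7.62% background, with medians of 0.33 and -0.07 within the pairs. The difference between the siRNA pairs is the residual of this design and was not tested. DESeq2 called 3 mitosis genes, and the correction for GC content and length described below called 24. That correction called 15 of the 54 histone genes higher and none lower, with a median of 0.32 against 0.14 in the fit without it. Aurka was named after its value was seen.

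Genes of ribosome assembly and of the ribosome itself lay on opposite sides of 0. Of 36 ribosome biogenesis genes, 13 were called higher and none lower, with a median of 0.31. Nhp2, a small nucleolar RNA-binding protein, was higher by 0.71 ± 0.14. The list also held Srm, spermidine synthase, which is not itself an assembly factor and was higher by 0.68 ± 0.13. Cytosolic ribosomal protein genes had 77 of 79 below 0 and a median of -0.36, while 10 were called lower and none higher. Rpl39, a small ribosomal protein, stood at 554 and 394 CPM in number 1 and 347 and 223 CPM in number 2. The count of ribosomal protein genes called moved with the scaling, from 33 lower with upper quartile scaling to 5 lower and 1 higher with a GC and length correction. DESeq2 called 4 ribosome biogenesis genes higher.

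**Figure D4:**
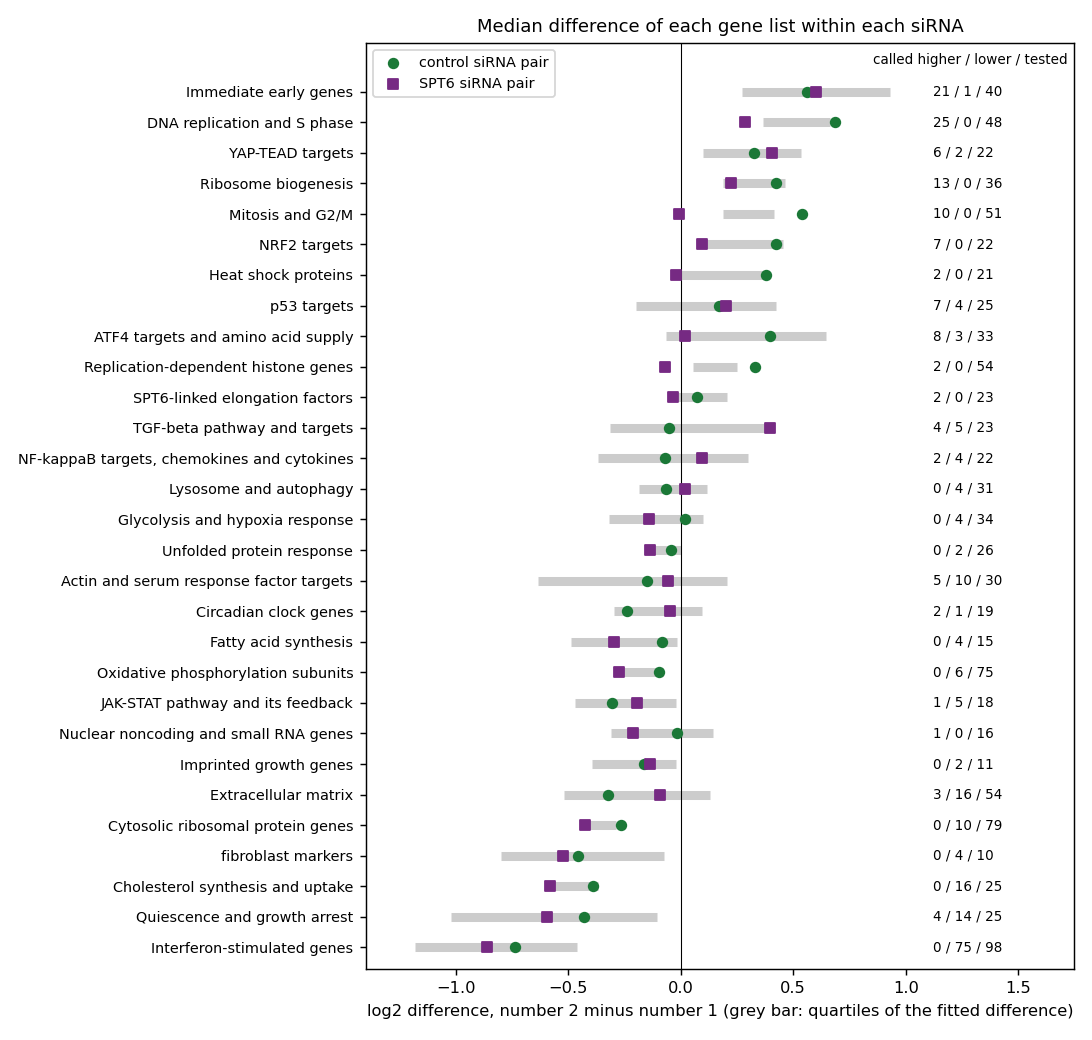
For each list with 10 or more tested genes, other than the 6 chosen after values were seen, green circles and purple squares give the median log2 difference between number 2 and number 1 within control and SPT6 siRNA, and grey bars the quartiles of the fitted difference. Interferon-stimulated, growth arrest and cholesterol genes lie below 0 and immediate early and DNA replication genes above 0 in both pairs, and for mitosis the pairs separate.

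Cholesterol synthesis and uptake genes were lower in number 2. Of 25 tested, 16 (64%) were called lower and none higher, beside 7.72% and 7.62% of all genes. The median was -0.49 (-0.39 within control siRNA, -0.58 within SPT6 siRNA). Hmgcs1, which makes the substrate of the rate-limiting step, stood at 768 and 478 CPM in number 1 and 441 and 251 CPM in number 2, with 767 and 524 CPM untreated. Stard4, a cholesterol carrier, was at 85.2 and 71.2 CPM in number 1 and 46.6 and 38.2 CPM in number 2 (log2 -0.88 ± 0.14 SE, adjusted p = 0.00015). Both had number 2 below number 1 without overlap. Mvd and Pmvk, enzymes of the mevalonate branch, were lower by -0.85 ± 0.14 and -0.86 ± 0.14. In fatty acid synthesis, 4 of 15 were called lower and none higher, among them the desaturase genes Scd1 (-0.54 ± 0.15) and Scd2 (-0.85 ± 0.18). Fasn, fatty acid synthase, differed by 0.46 ± 0.16 without passing the test. DESeq2 called 10 of the 25 cholesterol genes.

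The sequence CCAAT, bound by the factor NF-Y beside sterol-responsive sites, was in 16 of 17 cholesterol genes with a window (94.1%) and in 43.9% of all tested genes with one. The sterol element itself, searched as TCACCCCAC, was in 1 of the 17 (5.88%) and in 0.619% of all. CCAAT was also in 76.2% of mitosis and 83.7% of histone genes with a window. The window of Hmgcs1 is shown with 2 copies in capitals, both read on the opposite strand.
Hmgcs1, chr13:119690101-119690220, plus strand: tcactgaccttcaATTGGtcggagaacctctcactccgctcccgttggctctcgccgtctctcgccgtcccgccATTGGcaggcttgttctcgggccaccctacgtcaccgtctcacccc

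Extracellular matrix genes had 16 of 54 called lower (29.6%) and 3 higher (5.56%), beside 7.72% and 7.62% of all genes. Their median was -0.29, and it was -0.33 within control siRNA and -0.09 within SPT6 siRNA. Postn, periostin, stood at 1122 and 655 CPM in number 1 and at 304 and 148 CPM in number 2, beside 1089 and 619 CPM untreated (log2 -2.02 ± 0.16, adjusted p = 4.16e-08). Dcn, decorin, was at 269 and 203 CPM in number 1 and 103 and 66.6 CPM in number 2. Postn and Dcn did not overlap between numbers. Mmp2 and Mmp9, matrix proteases, were lower by -0.81 ± 0.15 and -1.28 ± 0.22. Hspg2, perlecan, was higher, at 450 and 1014 CPM in number 2 against 260 and 224 CPM, and differed by 0.79 with control siRNA and 2.18 with SPT6 siRNA. Of 11 small leucine-rich proteoglycan genes tested, 5 were called lower, among them Aspn (-2.94 ± 0.16) and Ogn (-1.96 ± 0.14), and none higher. Of 12 complement genes tested, 5 (41.7%) were called lower and 1 (8.33%) higher, the latter near the 7.62% of all genes. C3 stood at 58.8 and 41.0 CPM in number 1 and 8.77 and 5.33 CPM in number 2. Both lists, Hspg2, Ogn and C3 were chosen after values were seen.

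Among 10 fibroblast markers, Pdgfra, Col3a1, Thy1 and Lox were called lower (40%, beside 7.72% of all genes) and none higher. The median of the 10 was -0.45. Vim, vimentin, differed by 0.09 ± 0.18. In these bulk samples fewer cells of a type and less RNA per cell cannot be told apart.

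Several contractile genes were lower in number 2. Acta2, smooth muscle actin, stood at 1307 and 485 CPM in number 1, 559 and 281 CPM in number 2, and 311 and 230 CPM untreated (log2 -1.01 ± 0.16). The lowest number 1 library, with SPT6 siRNA, was below the number 2 library with control siRNA. Tagln, transgelin, was lower by -0.89 ± 0.14 with the same overlap, whereas Myl9, a myosin light chain, was lower by -1.47 ± 0.19 without overlap. Of 30 actin and serum response factor targets, 10 (33.3%) were called lower and 5 (16.7%) higher, beside 7.72% and 7.62% of all genes. Those called higher included Zyx, zyxin, at 363 and 297 CPM against 235 and 143 CPM. The summed level of 5 smooth muscle markers, which fibroblasts also express, was 1615 and 634.5 CPM in number 1 and 757.8 and 399.8 CPM in number 2, most of it Acta2. Another of the 5, Smtn, smoothelin, stood at 71.8 and 39.2 CPM in number 1 and 79.7 and 55.4 CPM in number 2 and did not pass the test (log2 0.32 ± 0.14). A part of other cells in these values was not tested. Zyx was named after its value was seen.

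GC content and transcript length moved with the difference. Among the 3114 genes with the highest GC content 12.9% were called higher and 5.11% lower, and among the 3114 with the lowest 4.08% and 9.31%. The median of the high GC group was 0.04 within control siRNA and 0.17 within SPT6 siRNA. Called higher genes had a median transcript length of 3882 bases and called lower genes 2969, against 3132 over all genes. A correction for GC content and length, added after the data were seen, called 2460 genes, 1736 of them shared with the 1926. Under it oxidative phosphorylation genes, with 6 of 75 lower (8%, near the 7.72% of all genes) and a median of -0.19 in the fit without it, had a median of 0.0048. The part of GC content and length in each result was not tested beyond that correction.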

How the data were processed

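Per the labels' protocols, TRIzol extracts of NIH3T3 cells went through Ovation SP Ultralow library preparation and paired-end sequencing on a HiSeq2000. The authors deposited raw whole-number counts for each gene symbol, with no normalisation. Per the submitters' processing notes, TopHat2 2.1.0, HTSeq 0.6.1p1, DESeq2 and the builds mm10 and GRCm38 were used. Which annotation and strand setting the counting used is not given in the sources used here. Reads of overlapping or antisense genes may therefore be mixed. Count lines without a gene name (33.8% to 37.5% of reads in no feature, 27.9% to 31.3% not uniquely aligned) were dropped before scaling.

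The 4 IFN-beta libraries were fitted in R 4.3.3 with edgeR 4.0.16 (estimateDisp, robust glmQLFit, glmQLFTest) on siRNA and number, with TMM factors. The filter filterByExpr by number (count minimum 10) left 12558 of 24062 genes. The fit has 1 residual degree of freedom a gene, which edgeR pools over genes. A gene was called at a Benjamini-Hochberg adjusted p under 0.05 over all genes tested. Each standard error is the absolute log2 difference divided by the square root of the F statistic. CPM levels used TMM factors over all 6 libraries. Differences within an siRNA are of log2 CPM (prior count 2) and have no test. The number 1 and number 2 libraries of a group were not duplicates (chi-square per degree of freedom 39.4 with control and 34.7 with SPT6 siRNA).

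The comparison and the gene lists were chosen with earlier results of these data known, and 6 lists and the GC and length correction were added after values were seen. Named genes were the 10 highest and 10 lowest calls without overlap (average log2 CPM of at least 3), up to 4 members of each list with the smallest p, and 12 interferon genes. Some are left out for length, and some are not reported here. Gene positions came from GENCODE M21 (GRCm38), which matched 98.5% of symbols. The script was tested on simulated counts. Alternatives covered size factors, upper quartile, library size, DESeq2 1.42.0, limma-voom (limma 3.58.1), edgeR's legacy and non-robust forms, a count minimum of 50, no count filter, a fold of 1.5, all 6 libraries, no siRNA term, no Rn45s, and leaving out libraries.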

Additional observations from a re-analysis of the deposited data

Results flagged for a closer look

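For 10 gene lists of 3 or more tested genes the median log2 difference between number 2 and number 1 had opposite signs in the siRNA pairs. The difference between the pairs was not tested, since it is the residual of the design, and each pair is 1 library against 1. Mitosis genes stood at 0.54 in the control pair and at -0.0085 in the SPT6 pair, and replication-dependent histone genes at 0.33 and -0.070. Heat shock protein genes followed the same pattern with 0.38 and -0.022. For TGF-beta pathway genes the sign went the other way, -0.051 in the control pair and 0.39 in the SPT6 pair, as it did for NF-kappaB targets (-0.072 and 0.095). Smaller values stood in glycolysis and hypoxia genes (0.019 and -0.14), lysosome and autophagy genes (-0.064 and 0.017), elongation factors linked to SPT6 (0.073 and -0.033) and the insulin-like growth factor list (-0.11 and 0.014). The 3 tested macrophage markers, all under 10 CPM, had -0.63 and 0.35, and the single tested endothelial marker -0.95 and 1.17.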

How the results depend on the processing

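The number 2 against number 1 comparison called 1926 genes. The count was 321 for a fold over 1.5, 7 without the siRNA term (1521 at an unadjusted p under 0.05) and 806 with DESeq2, of which 794 were among the 1926. It lay between 1622 and 2460 under the other alternatives run. Of 126 named genes called, 27 lost the call with DESeq2, 8 with the GC and length correction and 122 without the siRNA term. For a fold over 1.5, 72 lost it, and with no count filter 12 did. None changed sign under any alternative that gave it a value. With the number as a replicate block, 2128 genes differed between the siRNAs, against 0 with no replicate block (edgeR, 1493 at an unadjusted p under 0.05) and 624 with DESeq2 and the block. The labels do not say that a number marks a pairing. Where edgeR called 25 DNA replication, 10 mitosis, 13 ribosome biogenesis, 16 cholesterol, 6 oxidative phosphorylation and 10 ribosomal protein genes, DESeq2 called 11, 3, 4, 10, 1 and 17. The GC and length correction called 24 mitosis and 27 lower extracellular matrix genes, against 10 and 16. Leaving out any library leaves 1 siRNA pair with no residual degrees of freedom, so those fits give values without a test. Depth limits genes such as Igf2 at 20 and 14 counts in number 2.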

Other observations

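NRF2 targets, the antioxidant genes, had 7 of 22 (31.8%) called higher in number 2 and none lower, beside 7.62% and 7.72% of all genes. Their medians were 0.42 within control siRNA and 0.10 within SPT6 siRNA. Gsr, glutathione reductase, stood at 50.4 and 62.2 CPM in number 1 and 124 and 90.2 CPM in number 2, and Txnrd1, thioredoxin reductase, at 189 and 232 CPM against 345 and 310 CPM. Of 33 ATF4 targets and amino acid supply genes, 8 (24.2%) were called higher and 3 (9.09%) lower, the latter near the background. Slc7a5 and Slc7a11, amino acid transporters, were higher by 0.88 ± 0.14 and 0.86 ± 0.16. Among p53 targets 7 of 25 (28%) were called higher and 4 (16%) lower, the latter including Trp53inp1 (-0.87 ± 0.13) and Sesn1 (-1.02 ± 0.18). DESeq2 called fewer higher: 3 NRF2 targets, 4 ATF4 genes and 2 p53 targets. It called 3 ATF4 genes and 3 p53 targets lower. In the unfolded protein response 2 of 26 were called lower and none higher, near or below the background.

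Single genes of other pathways differed more. Tgfbi, a secreted matrix protein induced by TGF-beta, stood at 13.1 and 7.55 CPM in number 1 and at 0.706 and 1.40 CPM in number 2, while Smad7, an inhibitor of the same pathway, was at 35.4 and 42.3 CPM and at 70.9 and 99.4 CPM. Hlf, a transcription factor of the circadian output, was at 6.61 and 10.2 CPM in number 1 and at 0.942 and 1.22 CPM in number 2, with 20.5 and 20.5 CPM untreated. Nr1d1, a repressor in the clock, was higher by 1.14 ± 0.19, while 2 of 19 clock genes were called higher and 1 lower, beside 7.62% and 7.72% of all genes. Cxcl12, a chemokine, was at 52.5 and 40.0 CPM in number 1 and at 18.3 and 17.4 CPM in number 2, and the alarmin Il33 was lower by -3.26 ± 0.41. None of these genes overlapped between the numbers. Polr2a, the largest subunit of RNA polymerase II, was at 75.9 and 68.6 CPM in number 1 and at 79.4 and 167 CPM in number 2, a difference that did not pass the test (adjusted p = 0.09209) and lay in the SPT6 siRNA pair.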
